A study of Homo sapiens with 8 samples.

Results

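Solute carriers are membrane proteins that move small molecules and ions across cell membranes without hydrolysing ATP. Their mRNAs were examined here in HEK293T cells, a human embryonic kidney cell line, both in sorted P-bodies and by RNA editing. The members are the genes whose symbol has the form SLC, a family number, A and a member number, leaving out the mitochondrial SLC25 carriers, with a mean of at least 50 raw counts over the 4 libraries of the sort. This rule gave 161 genes of the 59414 in the count table, from 44 families, and all 161 were protein-coding. A further 129 symbols of that form had a lower mean. Just inside the threshold lay SLC12A5 at a mean of 50.75 counts and SLC4A9 at 55.75. Just outside it lay SLC16A4 at 44.75, SLC6A17 at 42.25 and SLC39A1 at 35.25. The members were thus chosen by their mean count over both fractions, so their level is not a finding, whereas the rule uses neither the difference between the fractions nor the editing scores. Of the 161, 7 genes, among them SLC12A5, SLC4A9, SLC10A4, SLC17A7, SLC5A5 and SLC15A1, reached a mean of 50 counts in cytosol and not in sorted P-bodies, and 0 reached it in sorted P-bodies alone.

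All 8 libraries came from HEK293T cells carrying PB-TRIBE-STAMP, in which deaminases brought to P-bodies mark mRNAs by A-to-I and C-to-U changes. The sort compared 2 libraries of sorted P-bodies (labelled as total RNA, 50 ng input) with 2 of cytosol (cytoplasmic RNA, 100 ng). The knockdown compared 2 libraries from cells given an siRNA against EDC4 (siEDC4) with 2 from cells given a control siRNA (siNC), both labelled as polyA RNA with 500 ng input. The labels give every group a batch 1 and a batch 2, and do not say that these were separate cultures, so p-values measure the spread between these libraries, which may be technical. The fractions of the sort also differ in input amount and in the kind of RNA labelled, and these cannot be told apart from the fraction itself. The labels do not name the proteins that carried the deaminases.

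P-bodies are cytoplasmic granules of RNA and protein that hold mRNAs with the decapping and translational repression machinery, including DDX6, LSM14A and EDC4. Most solute carriers are made on the endoplasmic reticulum and span the membrane many times, and members of a family can carry different substrates. Proliferating cells such as HEK293T import amino acids, glucose, zinc, iron and phosphate through solute carriers, and some substrates have both an importer and an exporter among them.

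The 4 libraries of the sort held 21186963 to 23716926 counts, and the members took 0.856% and 0.862% of the counts in sorted P-bodies, against 0.828% and 0.837% for cytosol. Genes that HEK293T cells are known to express (VIM, KRT8, KRT18, NEFM, INA and PAX2) were present. The T-cell gene CD3E was at 0 counts in every library, and the hepatocyte gene ALB had at most 1. The blood gene PTPRC had 1 to 9 counts. ESR1 and EPCAM, genes of epithelial tumour lines, had 0 to 7 and 29 to 53 counts. The fibroblast genes COL1A1 and LUM had 178 to 517 and 37 to 106 counts. The part of these genes in the results was not tested.

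Sequences are shown for the highest and the lowest member of the 3 families whose members lay farthest apart in the sort, because base composition ran with the sort ratio across the members, as the values further on show. Each is the middle 50 codons of the coding sequence in the GENCODE v29 transcript (GRCh38), 5′ to 3′, with capitals marking a G or C in the last position of a codon. SLC7A11 (chr4:138164097-138242349, minus strand) imports cystine in exchange for glutamate, and its relative SLC7A8 (chr14:23125295-23183674, minus strand) exchanges neutral amino acids. SLC38A2 (chr12:46358188-46372773, minus strand) and SLC38A3 (chr3:50205246-50221486, plus strand) carry glutamine and other neutral amino acids with sodium. SLC30A1 (chr1:211571568-211579161, minus strand) exports zinc across the plasma membrane, and SLC30A3 (chr2:27253684-27275817, minus strand) moves zinc into vesicles.
SLC7A11: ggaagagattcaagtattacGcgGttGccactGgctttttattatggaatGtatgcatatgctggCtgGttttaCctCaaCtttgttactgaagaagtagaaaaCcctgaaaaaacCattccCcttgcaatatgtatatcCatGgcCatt
SLC7A8: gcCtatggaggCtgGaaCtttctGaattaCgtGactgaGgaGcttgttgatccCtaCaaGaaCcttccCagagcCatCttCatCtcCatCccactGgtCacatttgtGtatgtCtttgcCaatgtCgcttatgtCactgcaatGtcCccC
SLC38A2: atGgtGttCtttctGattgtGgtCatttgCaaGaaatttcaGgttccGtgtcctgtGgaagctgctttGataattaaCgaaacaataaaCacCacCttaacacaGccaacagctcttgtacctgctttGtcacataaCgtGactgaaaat
SLC38A3: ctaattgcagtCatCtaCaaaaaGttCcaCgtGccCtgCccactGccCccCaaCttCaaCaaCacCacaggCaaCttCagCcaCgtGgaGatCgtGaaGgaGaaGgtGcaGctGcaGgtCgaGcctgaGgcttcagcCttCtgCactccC
SLC30A1: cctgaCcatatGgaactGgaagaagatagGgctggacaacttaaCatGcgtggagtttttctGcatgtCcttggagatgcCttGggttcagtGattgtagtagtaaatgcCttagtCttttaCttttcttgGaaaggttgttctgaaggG
SLC30A3: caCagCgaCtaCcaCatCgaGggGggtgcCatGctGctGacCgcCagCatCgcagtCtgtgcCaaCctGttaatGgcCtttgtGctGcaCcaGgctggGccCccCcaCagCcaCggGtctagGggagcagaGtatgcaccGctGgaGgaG
SLC7A11 ended 16 of these 50 codons in G or C, and SLC7A8 ended 30. SLC38A2 ended 20 against 40 for SLC38A3, and SLC30A1 ended 16 against 39 for SLC30A3. In the first 30 codons, 20 against 19 ended in G or C for SLC7A11 and SLC7A8, and 28 against 23 for SLC30A1 and SLC30A3, the opposite order. SLC38A2 and SLC38A3, with 22 against 24, kept it. The middle window was chosen after those leading codons had been seen. Over the whole coding sequence the share was 47.6% against 71.1%, 41.6% against 80% and 53.7% against 75.3%.

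The first question was which of these mRNAs were more, and which less, abundant in sorted P-bodies than in cytosol. Of the 161 members, 38 were higher in sorted P-bodies, 77 were lower and 46 did not pass an adjusted p of 0.05 (edgeR quasi-likelihood test, Benjamini-Hochberg over all 18745 genes tested). That is 23.6% higher and 47.8% lower. Over all genes tested 28.8% were called higher and 29% lower. Over the 12110 protein-coding genes with the same mean of at least 50 counts, the shares were 35.4% higher and 35.8% lower. The median log2 fold change of the members was -0.32, beside -0.04 for those protein-coding genes. All 161 members passed the filter on low counts. The 7 that reached a mean of 50 counts in cytosol alone are included here and in the family counts. The calls were not counted without them. The change exceeded 2-fold in 16 of the higher and 20 of the lower members, beside 1894 and 1192 of those 12110 protein-coding genes. Sorted and cytosol libraries did not overlap for 139 of the 161 members, and 88.6% of the protein-coding genes of that level were apart in the same way. Scaling to library size moved the median of all genes from -0.03 to -0.23 (log2), and under it 30 members were higher and 92 lower. The sorted P-body libraries differed from each other by 22.5 times the sampling variance over all genes, against 3.00 times for the cytosol pair.

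**Figure D1:**
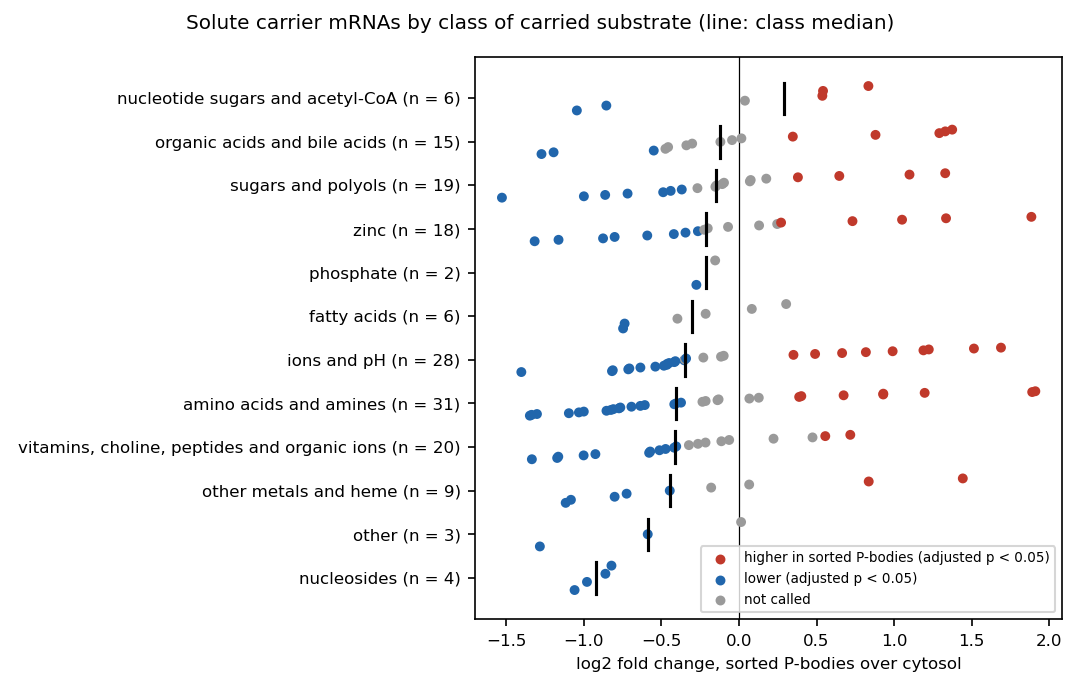
Log2 fold change of sorted P-bodies over cytosol (horizontal axis) for each of the 161 members, arranged in rows by class of carried substrate, with 1 point per gene coloured by call and a black line at the class median. All 4 nucleoside carriers were lower, while most other classes held both higher and lower members.

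Amino acid and amine carriers were the most numerous class, with 31 members, of which 8 were higher, 17 lower and 6 not called (median -0.41). The cystine importer SLC7A11 was at 177 and 271 CPM (read counts after TMM normalisation for depth) in sorted P-bodies, against 55.1 and 64 CPM for cytosol. Both sorted values lay above both cytosol values, with a log2 fold change of 1.91 ± 0.19 (SE, 2 libraries per group, edgeR adjusted p = 2.57e-05). SLC38A2, a sodium-coupled glutamine importer that cells raise when amino acids are short, was at 845 and 948 CPM against 238 and 246 CPM (log2 1.89 ± 0.12, edgeR adjusted p = 3.62e-06). Its close relative SLC38A1 had 623 and 750 CPM against 350 and 370 CPM, again without overlap (log2 0.93 ± 0.13). The cationic amino acid carrier SLC7A2 was likewise higher, at 142 and 157 CPM against 66.1 and 64.4 CPM (log2 1.20 ± 0.11).

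The main exchangers of neutral amino acids lay on the other side. SLC1A5, which brings glutamine into the cell, was at 154 and 133 CPM in sorted P-bodies, against 276 and 298 CPM in cytosol (log2 -1.0 ± 0.12, edgeR adjusted p = 7.64e-05). SLC7A5, the large neutral amino acid exchanger that imports leucine, was at 106 and 92.7 CPM against 203 and 222 CPM (log2 -1.10 ± 0.12, edgeR adjusted p = 4.1e-05). The sorted values of both genes were below all their cytosol values. SLC3A2, the heavy chain that carries both SLC7A5 and SLC7A11 to the plasma membrane, was lower by less, at 104 and 86.2 CPM against 124 and 128 CPM (log2 -0.41 ± 0.12, edgeR adjusted p = 0.0154). The largest falls in the class were SLC7A8 at log2 -1.35 ± 0.11 (12.2 and 11 CPM against 29.5 and 29.6 CPM), SLC6A16 at -1.34 ± 0.16 and SLC38A3 at -1.30 ± 0.15. The cationic amino acid carrier SLC7A1 was not called, at 293 and 284 CPM against 337 and 343 CPM (log2 -0.24 ± 0.11, edgeR adjusted p = 0.0831).

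Zinc carriers fall into the SLC30 family, which mostly moves zinc out of the cytosol, and the SLC39 family, which mostly moves it in. Both were taken by family number, so single members may carry another metal or move zinc the other way. Among the 8 SLC30 members 4 were higher and 1 was lower, and among the 10 SLC39 members 1 was higher and 7 were lower. The difference between these families was not tested. The exporter SLC30A1 had 166 and 216 CPM in sorted P-bodies, against 48.8 and 54.7 CPM in cytosol (log2 1.88 ± 0.14, edgeR adjusted p = 7.33e-06). SLC30A7, which loads zinc into the secretory pathway, was at 152 and 190 CPM against 81.5 and 83.5 CPM (log2 1.05 ± 0.13). The lower SLC30 member was SLC30A3 at log2 -1.16 ± 0.14. Within SLC39 the higher member was the importer SLC39A10, at 317 and 350 CPM against 130 and 134 CPM (log2 1.33 ± 0.11, edgeR adjusted p = 1.11e-05). SLC39A4, which takes up dietary zinc in the gut, had the largest fall of the family at log2 -1.32 ± 0.14, with 4.95 and 4.54 CPM against 11.8 and 11.9 CPM. SLC39A7, which releases zinc from the endoplasmic reticulum and Golgi, was at 57.4 and 46.5 CPM against 92.7 and 98.1 CPM (log2 -0.88 ± 0.12).

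Carriers of other metals and heme numbered 9, with 2 higher and 5 lower. SLC40A1, the iron exporter ferroportin, was at 27.4 and 27.9 CPM against 10.1 and 10.2 CPM (log2 1.44 ± 0.11, edgeR adjusted p = 7.34e-06). The magnesium carriers SLC41A2 and SLC41A1 parted, at log2 0.84 ± 0.12 and -1.08 ± 0.10. The heme carrier SLC48A1 and the copper importer SLC31A1 were lower, at log2 -1.12 ± 0.13 and -0.72 ± 0.10.

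Carriers of ions and pH regulators made up 28 members, 9 higher, 15 lower and 4 not called (median -0.35). The bicarbonate cotransporter SLC4A7 was at 421 and 509 CPM in sorted P-bodies, against 139 and 149 CPM in cytosol (log2 1.69 ± 0.13, edgeR adjusted p = 7.05e-06). Another bicarbonate cotransporter, SLC4A4, was at 43.4 and 52.8 CPM against 17.7 and 16 CPM (log2 1.51 ± 0.13). The sulfate carrier SLC26A2 had 200 and 233 CPM against 87.6 and 97.6 CPM (log2 1.22 ± 0.12). In each of these 3 genes the fractions did not overlap. The sodium-potassium-chloride cotransporter SLC12A2 was at 98.3 and 108 CPM against 71.9 and 75 CPM (log2 0.49 ± 0.11, edgeR adjusted p = 0.0029). It lost its call without the first or the second cytosol library (edgeR adjusted p = 0.103 and 0.053).

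Sugar and polyol carriers numbered 19, with 4 higher, 7 lower and 8 not called (median -0.14). SLC5A3, which imports myo-inositol with sodium, was at 380 and 450 CPM against 166 and 164 CPM (log2 1.33 ± 0.12, edgeR adjusted p = 1.67e-05). The myo-inositol carrier SLC2A13 was also higher (log2 1.10 ± 0.19). SLC50A1, a sugar carrier of the Golgi, had the largest fall of all members, at 21.9 and 17.8 CPM in sorted P-bodies against 54.8 and 59.8 CPM in cytosol (log2 -1.53 ± 0.12, edgeR adjusted p = 9.59e-06). The glucose transporter SLC2A1 was at 38.6 and 38.7 CPM against 46.5 and 53.3 CPM (log2 -0.37 ± 0.11, edgeR adjusted p = 0.0139), and without the second cytosol library its adjusted p was 0.263. SLC5A6, a sodium-coupled vitamin carrier that shares the family number, was lower at log2 -0.86 ± 0.10.

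Organic and bile acid carriers numbered 15, with 5 higher, 3 lower and 7 not called. SLC16A7, a monocarboxylate carrier, was at 29.5 and 52.6 CPM in sorted P-bodies against 16 and 16.6 CPM in cytosol (log2 1.33 ± 0.22, edgeR adjusted p = 0.00069). Its sorted libraries lay far apart, though both were above cytosol. SLC10A7 had 62.7 and 67.3 CPM against 26.2 and 26.9 CPM (log2 1.29 ± 0.10). The lactate carrier SLC16A1 had overlapping values of 381 and 364 CPM against 353 and 384 CPM (log2 0.02 ± 0.11, edgeR adjusted p = 0.914), and the sign of its estimate turned under some scalings.

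The 4 equilibrative nucleoside carriers were lower without exception, between log2 -0.82 (SLC29A2) and -1.06 (SLC29A4). SLC29A1, the main nucleoside carrier of the plasma membrane, was at 44.1 and 40.4 CPM in sorted P-bodies against 79.9 and 86.9 CPM in cytosol (log2 -0.98 ± 0.11). Carriers of vitamins, choline, peptides and organic ions were higher in 2 and lower in 11 of 20, among them the choline carriers SLC44A5 (log2 0.72 ± 0.13) and SLC44A2 (log2 -1.33 ± 0.12, at 38.7 and 31.8 CPM against 86.2 and 91.8 CPM). Others of the class that were lower are the carnitine importer SLC22A5 (log2 -0.93 ± 0.11), the drug and toxin exporter SLC47A1 (log2 -1.16 ± 0.14) and SLC22A17 (log2 -1.17 ± 0.14). Of the 6 carriers of nucleotide sugars and acetyl-CoA, 3 were higher, among them SLC35A5 (log2 0.83 ± 0.11) and the acetyl-CoA carrier SLC33A1 (log2 0.54 ± 0.12), and 2 were lower, SLC35A4 (log2 -1.04 ± 0.10) and the UDP-galactose carrier SLC35A2 (log2 -0.85 ± 0.12). The fatty acid carriers gave 0 higher and 2 lower of 6. The phosphate importer SLC20A1 was at 103 and 104 CPM against 114 and 116 CPM and was not called (log2 -0.15 ± 0.10, edgeR adjusted p = 0.223), though it was called lower under library-size scaling and without either sorted library.

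**Figure D2:**
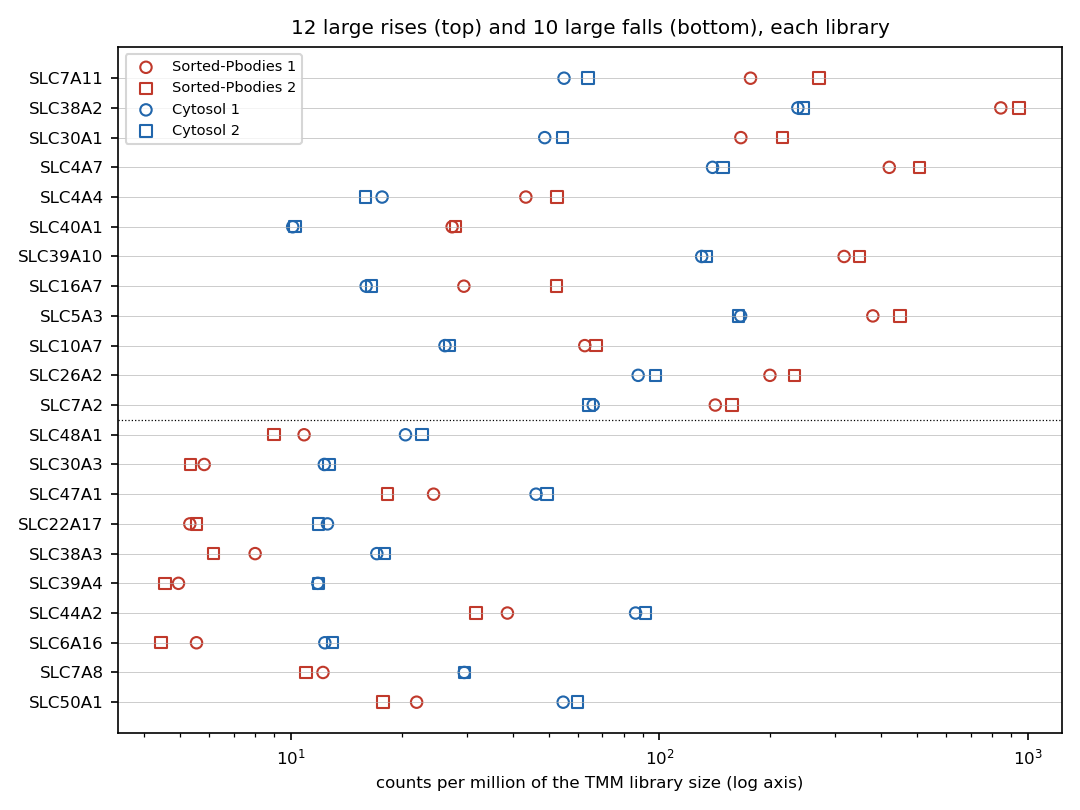
CPM of the TMM-scaled library (horizontal log axis) in each of the 4 libraries of the sort, for the 12 largest rises and 10 of the 12 largest falls among members with a mean of at least 10 CPM in a group. Circles are replicate 1 and squares replicate 2, red for sorted P-bodies and blue for cytosol. The red and blue symbols are apart in all 22 genes shown. These were chosen as called, with large changes in the same direction in both batches, so their separation is not a separate result.

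Per kilobase of exon, the carriers with the highest levels in cytosol were SLC1A5 at 86.1 CPM per kb, SLC16A1 at 58, SLC7A5 at 44.6, SLC7A1 at 44.2, SLC38A2 at 37.2 and SLC38A1 at 36 CPM per kb. In sorted P-bodies the order was SLC38A2 at 138 CPM per kb, SLC38A1 at 68.5, SLC16A1 at 58.7, SLC4A7 at 48.3, SLC39A10 at 48.2 and SLC1A5 at 43.1 CPM per kb. The glutamine importers SLC1A5 and SLC38A2 thus stood in opposite order in the fractions.

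Families often held members called in both directions. Of 33 families with at least 2 members, 19 held both a higher and a lower member, 12 held lower members and no higher one, 2 held no called member and 0 held higher members alone. The same count was not made for groups of unrelated genes, so it does not show whether relatives differ more than other genes. The distance between the highest and the lowest member was 3.26 on the log2 scale in SLC7, 3.19 in SLC38 and 3.05 in SLC30. These families hold 7, 8 and 8 members, and a larger family has more room for a wide range. In SLC4 it was 2.40, from SLC4A7 to SLC4A9. SLC4A9 met the count rule through cytosol alone, with a mean of 74 counts there and 37.5 in sorted P-bodies.

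Other transport genes of the same minimum level are given for scale. Of 41 SLC25 carriers of the mitochondrial inner membrane, 9 were higher and 20 lower (median -0.28). Of 24 further SLC symbols outside the naming pattern, 6 were higher and 12 lower (median -0.43). ABC transporters, which hydrolyse ATP, were higher in 14 and lower in 8 of 30 (median 0.20). ATPase pumps were higher in 14 and lower in 18 of 41 (median -0.07). Of 4 partner proteins of transporters, SLC3A2 among them, 0 were higher and 3 lower (median -0.35). The largest fall of these was that of BSG, which escorts the lactate carriers to the plasma membrane, at a mean of 137 CPM against 388 CPM (log2 -1.50 ± 0.14). NPTN was lower by less (log2 -0.30 ± 0.10), and EMB was not called (log2 0.28 ± 0.12, edgeR adjusted p = 0.0668). The differences between these lists were not tested.

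The rule did not use base composition, which ran with the sort ratio. The share of codons ending in G or C (GC3) had a median of 44.7% in the 38 higher members, 64.7% in the 46 not called and 73.3% in the 77 lower ones. Across the 161 members, GC3 and the log2 fold change had Pearson's r = -0.67 and Spearman's rho = -0.66. These are values across genes of the same 4 libraries, and genes are not independent replicates. Across 12077 protein-coding genes of the same minimum level, r was -0.54 and rho -0.55, so the relation was present well beyond the solute carriers. Members had a median GC3 of 67.9%, against 58% for the protein-coding genes. With members split by GC3 into 4 groups of near equal size, 26 of the 41 with the lowest GC3 (27.9% to 49.1%) were higher and 3 lower. From 49.5% to 67.9%, 12 of 40 were higher and 16 lower. From 67.9% to 76.3%, 0 were higher and 27 of 40 lower, and above that 0 were higher and 31 of 40 lower. The higher member with the largest GC3 was SLC16A14 at 62.6%, and the lower one with the smallest was SLC46A3 at 33.1%. The G+C share of the 3′UTR gave r = -0.65, and the log2 length of the 3′UTR gave r = 0.39, with a median 3′UTR of 2745 bases in higher members and 1174 bases in lower ones. Across 11963 protein-coding genes these r were -0.49 and 0.27. The median 3′UTR of the protein-coding genes was 1781 bases in higher and 817.5 bases in lower ones. Coding length had r = 0.15 across members and 0.40 across the protein-coding genes.

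**Figure D3:**
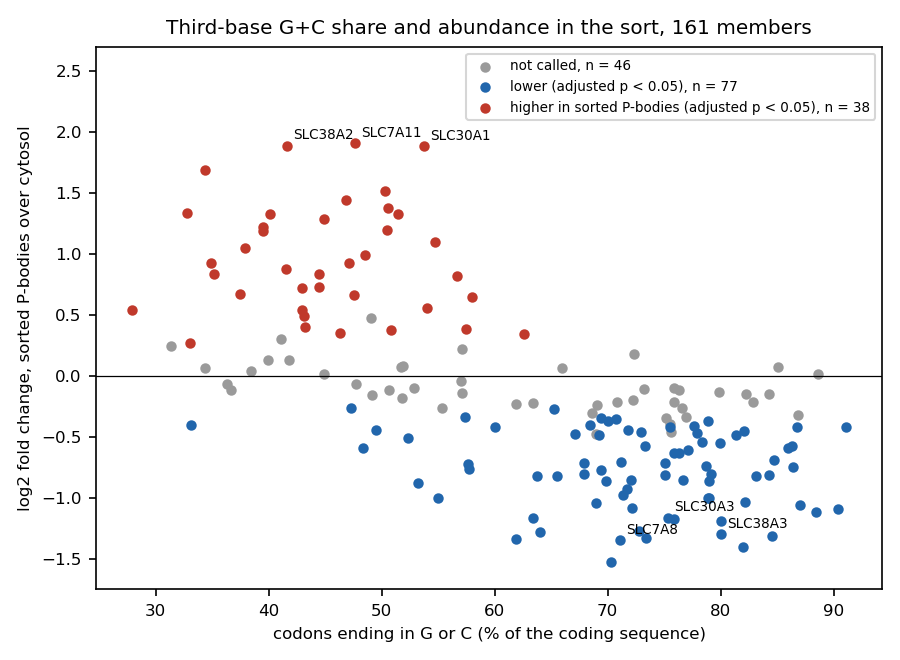
Share of codons ending in G or C (horizontal axis, percent) against the log2 fold change of sorted P-bodies over cytosol (vertical axis), with 1 point per member, red for higher, blue for lower and grey for not called. No red point lies beyond 62.6%, and the 6 genes whose sequences are printed are labelled.

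The editing score of a gene is the share of its reads that carry an edited base, A-to-I or C-to-U, and it was compared between the same sorted and cytosol libraries. The scores come from the libraries that gave the abundance, not from separate samples. The A-to-I table listed 157 members, and 147 had an edited read in at least 2 libraries and were tested. Of these, 79 had a higher score in sorted P-bodies and 3 a lower one (edgeR quasi-likelihood test on edited and unedited reads, Benjamini-Hochberg over 11303 genes). By the same edgeR test, the share over all genes tested was 73.5% higher and 1.08% lower. Members had a median log2 odds ratio of 1.30, against 1.46 for all genes. With limma on the log2 scores, 81 members were higher and 11 lower. Limma called 8262 of the 11303 genes, both directions together, and its shares by direction over all genes were not counted. The 79 members called higher had a median of 3988 reads over the 4 libraries, the 3 called lower 717 and those not called 963, and the part of depth in the calls was not tested. All genes tested had a median of 2926 reads and the members 2349.

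The C-to-U table listed 154 members, of which 137 were tested, with 76 higher and 1 lower (73 and 12 with limma). Limma called 7144 of the 10613 genes tested, both directions together, and its shares by direction over all genes were not counted. By edgeR, 68% of all genes tested were called higher and 0.292% lower. The median log2 odds ratio of that test was 2.20 in members and 2.33 in all genes. In all, 68 members were higher in both tables, which is 86.1% of the A-to-I and 89.5% of the C-to-U members called higher. Over protein-coding genes of the same minimum level these shares were 81% and 93.2%. Relative to the median of each library, 21 members were higher and 19 lower in A-to-I (16.1% and 13.2% of all genes), and 12 and 8 in C-to-U (11.3% and 4.49%).

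**Figure D4:**
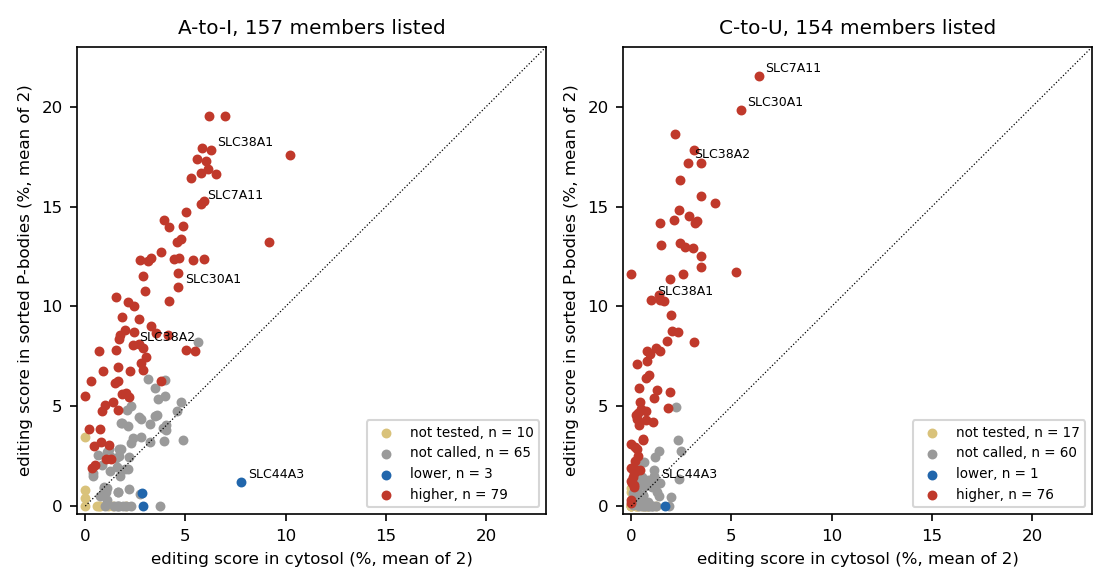
Mean editing score in cytosol (horizontal axis, percent of reads) against the mean score in sorted P-bodies (vertical axis), for A-to-I on the left and C-to-U on the right, with 1 point per listed member coloured by call and a dotted line of equal scores. Most called members lie above the line, up to 21.5% for SLC7A11 in C-to-U.

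Several members that were higher in abundance in sorted P-bodies also carried high scores there. SLC7A11 had C-to-U scores of 21.3% and 21.7% in sorted P-bodies, against 5.94% and 6.81% for cytosol (log2 odds ratio 2.00 ± 0.23, edgeR adjusted p = 1.23e-05). SLC30A1 had 20% and 19.6% against 6.43% and 4.54% (2.10 ± 0.25), and SLC38A2 had 17.4% and 17% against 2.9% and 2.78% (2.83 ± 0.27). The zinc importer SLC39A10 had 14.1% and 14.3% against 1.68% and 1.21% (3.50 ± 0.28). None of these 4 genes had overlapping groups. The median log2 odds ratio of C-to-U over all genes tested was 2.33. SLC7A11 and SLC30A1 lay below that median, and SLC38A2 and SLC39A10 above it. In A-to-I the highest score in sorted P-bodies was that of the myo-inositol carrier SLC5A3, at 19.6% and 19.5% against 6.22% and 6.08% (1.89 ± 0.12, edgeR adjusted p = 2.97e-09). SLC38A1 had 17.8% in both sorted libraries against 6.77% and 5.78% (1.70 ± 0.11), and the calcium exchanger SLC8A1 had the highest cytosol score, a mean of 10.2%.

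Set by their call in abundance, the 38 higher members had a median A-to-I score of 11.6% in sorted P-bodies, against 3.72% for cytosol, over 36 tested. The 77 lower members had 3.25% and 2.13%, over 72 tested. For C-to-U the medians were 12.6% and 2.45% in the higher members and 1.07% and 0.43% in the lower ones, over 37 and 65 tested. A-to-I rose in 33 of the 36 higher members tested (91.7%) and in 29 of the 72 lower ones (40.3%). Over protein-coding genes of the same minimum level it rose in 90.3% of those higher in abundance and 62.5% of those lower. C-to-U rose in 91.9% and 38.5% of the higher and lower members, beside 86.1% and 55.4% of the protein-coding genes. These measures share their libraries and depth, and are given side by side with no test.

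The largest A-to-I changes were in members with few reads or low cytosol scores. SLC16A6, a carrier of the monocarboxylate family, had 11 edited among 207 sorted P-body reads and 0 among 122 cytosol reads, which is at least 2.16-fold higher against a floor of 3 edited reads over the group. It lost its call with batch as a block (edgeR adjusted p = 0.0835). The peptide and histidine carrier SLC15A4 had 2.52% and 5.17% against 0.246% and 0.118% (4.26 ± 0.69), and the copper carrier SLC31A2 had 10.1% and 2.48% against 0.538% and 0% (4.62 ± 1.08). For SLC31A2, 64% of the exon bases overlap another gene, FKBP15, and it lost its call without the first sorted library (edgeR adjusted p = 0.0726). The glucose transporter SLC2A1, lower in abundance, rose in A-to-I from 1% and 0.788% in cytosol to 6.86% and 6.71% (3.01 ± 0.34, edgeR adjusted p = 7.39e-07). SLC3A2, lower in abundance as well, had A-to-I scores of 4.43% and 5.7% against 0.787% and 1.21% (2.36 ± 0.27). Its C-to-U table held 1 edited read among 2647 from sorted P-bodies and 0 among 4959 from cytosol, too few for a test.

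The amino acid exchangers SLC1A5 and SLC7A5 had A-to-I scores of 8% and 7.66% against 5.2% and 4.89%, and of 5.36% and 7.15% against 3.77% and 3.79%. Both were called higher as deposited and lower relative to the median of each library (log2 odds ratio 0.68 ± 0.14 and 0.73 ± 0.18 before centring). In C-to-U both had 0 edited reads in cytosol, of 10723 and 8637, and 6 of 4001 and 8 of 2746 in sorted P-bodies. Against the floor of 3 edited reads that is at least 5.36-fold and 8.39-fold higher. SLC50A1 was at least 8.60-fold higher by the same floor, with 6 edited among 531 reads and 0 among 2282, and SLC66A1, a lysosomal carrier of cationic amino acids, at least 4.70-fold, with 6 among 326 and 0 among 766. These 4 calls were lost after centring. SLC35A1, the CMP-sialic acid carrier of the Golgi, had 31 edited among 285 reads and 0 among 400, which makes it at least 14.5-fold higher, and remained called after centring. Another gene, AL049697.1 (mean of 33 counts), overlaps 55.5% of the exon bases of SLC35A1. The zinc carrier SLC30A5 had C-to-U scores of 6.62% and 7.66% against 0.287% and 0.269% (4.74 ± 0.38, edgeR adjusted p = 1.84e-06) while its abundance was not called (88.1 and 81.1 CPM against 86.7 and 91 CPM).

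The members with lower A-to-I scores in sorted P-bodies were SLC1A4, SLC39A3 and SLC44A3. SLC1A4, a neutral amino acid exchanger, had 0 edited among 204 sorted P-body reads and 15 among 513 cytosol reads, which is at least 1.99-fold lower. SLC44A3, of the choline carrier family, had 1.09% and 1.33% against 8.55% and 7.04% (log2 odds ratio -2.64 ± 0.83, edgeR adjusted p = 0.00853). The zinc carrier SLC39A3 had 0.562% and 0.769% against 3.29% and 2.4% (-2.03 ± 0.86, edgeR adjusted p = 0.0431), and lost its call with the block and without any single library. SLC1A4 lost its call without the first sorted library (edgeR adjusted p = 0.0588) and had too few edited reads for a test without either cytosol library, whereas SLC44A3 was called in every fit run. All 3 were lower in abundance too, and their groups did not overlap. In C-to-U the lower member was SLC45A3, with 0 edited among 211 reads and 7 among 405, which makes it at least 1.22-fold lower, and the call was lost with the block (edgeR adjusted p = 0.158).

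Editing was also measured in the siNC cells, whose libraries are separate from the sort. Between the siNC libraries, read numbers per gene varied by 1.02 times the sampling variance, close to sampling noise (chi-square p = 0.062 for A-to-I and 0.047 for C-to-U). Edited reads varied beyond sampling noise, by 1.30 and 1.31 times the sampling variance (chi-square p = 1.42e-39 and 7.37e-54). The siNC libraries were summed and counted as 1 sample, and fits with all 4 libraries are given as the alternative. Over 128 members with at least 100 siNC reads, the median C-to-U score was 3.5% in the 28 that were higher in sorted P-bodies, 1.26% in the 68 that were lower and 1.22% in the 32 not called. For A-to-I, over 122 members, the medians were 1.52%, 0.779% and 0.781%. Across genes, the siNC score and the log2 fold change of the sort had r = 0.43 and rho = 0.34 for C-to-U and r = 0.36 and rho = 0.27 for A-to-I. Over the protein-coding genes these were 0.19 and 0.23 (10425 genes), and 0.17 and 0.25 (10312 genes). The score also ran with GC3 across the members (r = -0.48 for C-to-U and -0.28 for A-to-I), which the points share with the sort ratio. SLC30A1 had the highest siNC score of the members in both tables, 11.2% in C-to-U and 5.53% in A-to-I. SLC38A2, higher in the sort, had siNC scores of 1.43% in C-to-U and 0.317% in A-to-I. These lay below the medians of the higher members, 3.5% and 1.52%. Its C-to-U score was near the 1.26% of the lower members. SLC7A11 was not listed in these tables.

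**Figure D5:**
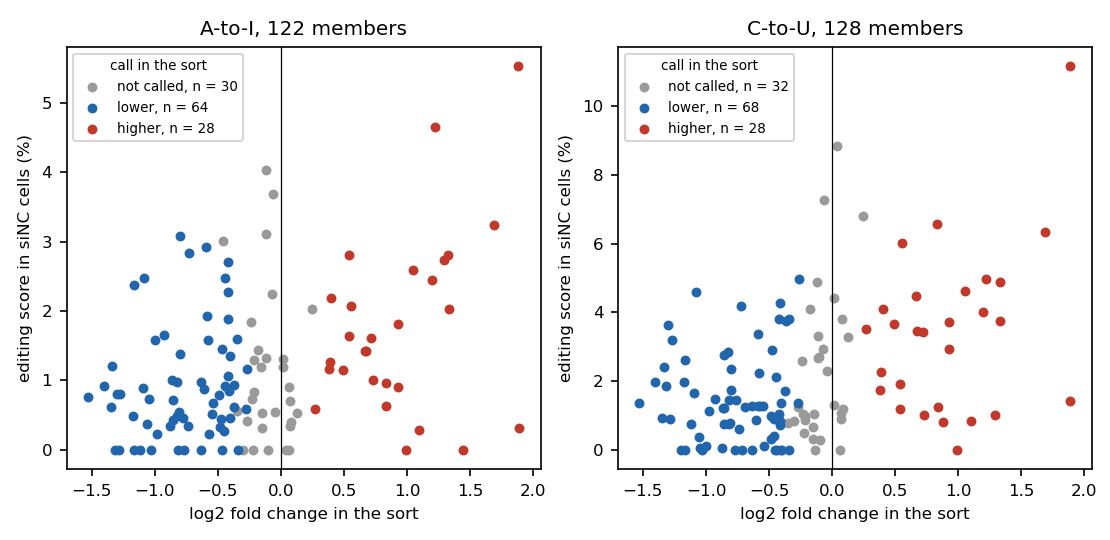
Log2 fold change in the sort (horizontal axis) against the editing score in the summed siNC libraries (vertical axis, percent of reads), for A-to-I on the left and C-to-U on the right, with 1 point per member with at least 100 siNC reads, coloured by its call in the sort. The median C-to-U score is 3.5% over red and 1.26% over blue points, and every call group holds members near 0%.

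The knockdown asked whether the scores depend on EDC4, a scaffold of the decapping complex. Its tests set the 2 siEDC4 libraries against the summed siNC libraries as 1 sample, which is assumed to vary like the siEDC4 pair. EDC4 itself had 245 and 186 reads in the siEDC4 libraries and 684 and 609 in the siNC libraries (log2 -1.56 ± 0.14, edgeR adjusted p = 2.63e-25). Among the members, 0 of 99 tested in A-to-I and 0 of 113 in C-to-U were called. Over all genes edgeR called 0% in either table, and limma also called 0 genes. At an unadjusted p under 0.05 there were 1 member in A-to-I and 4 in C-to-U (edgeR), and 2 and 4 by limma. Over all genes these were 491 of 9157 and 377 of 9646 (edgeR), and 346 and 263 by limma. With all 4 libraries fitted these were 5 of 103 and 7 of 114 members, and 0 were called after adjustment. The same fits gave 705 of 9271 and 613 of 9745 genes. The estimate was above 0 for 71 of the 99 members in A-to-I (median log2 odds ratio 0.28, against 0.31 for all genes) and for 80 of the 113 in C-to-U (0.28 against 0.20). After centring each library on its median, it was above 0 for 49 of 99 and 66 of 113.

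The smallest p in A-to-I was that of SLC5A3, at 5.41% and 5.39% in siEDC4 cells against 3% and 2.62% in siNC cells (log2 odds ratio 0.98 ± 0.29, edgeR adjusted p = 0.845). Its groups did not overlap, but the adjusted p was far from the threshold. In C-to-U the smallest was that of SLC29A1, at 3.48% and 2.46% against 1.93% and 0.303% (1.42 ± 0.47, edgeR adjusted p = 0.996), followed by SLC20A1, at 1.51% and 1.74% against 0.325% and 0.998%. SLC30A1 had A-to-I scores of 7.81% and 7.86% against 5.05% and 6.02%, and C-to-U scores of 10.3% and 10.2% against 11.4% and 10.9%. Its estimates had opposite signs in the tables, and neither passed.

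Reads per gene from the A-to-I knockdown table stood in for abundance, since a gene count table of the knockdown was not used here. Of 126 members tested, 1 was higher in siEDC4 cells and 0 were lower, beside 0.432% higher and 0.132% lower over 10642 genes. The higher one was SLC6A8, the creatine importer, at 223 and 238 CPM of reads in siEDC4 cells against 170 and 167 CPM in siNC cells (log2 0.45 ± 0.11, edgeR adjusted p = 0.0205, and 0.00514 with 4 libraries). Its groups did not overlap, and in the sort it was lower in P-bodies (log2 -0.81 ± 0.13). SLC6A8 has a near-identical pseudogene copy, so the division of its reads is uncertain. Next came SLC46A3 (log2 0.56 ± 0.20, edgeR adjusted p = 0.250) and SLC39A10, at 58.5 and 60.9 CPM against 77.8 and 78 CPM (log2 -0.38 ± 0.14, edgeR adjusted p = 0.272). Without the first siEDC4 library the median log2 fold change of the members was 0.013, and without the second 0.024, beside 0.010 in the main fit. Calls of these fits are not given. With 1 siEDC4 library left, the spread comes from the siNC pair alone, whose read numbers varied close to sampling noise.

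Some values carry a limit from the annotation. Exons of 75 members overlap another gene, by over 25% of the exon bases in 6 (SLC31A2, SLC46A1, SLC7A6, SLC35A1, SLC2A12 and SLC52A2), and 14 have a named pseudogene, among them SLC7A5, SLC20A1, SLC16A1, SLC29A4 and SLC47A1. The strand setting and the treatment of reads with several matches are not stated in the sources used here, so reads of these genes may be divided differently from other genes.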

How the data were processed

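The members and lists were chosen with earlier results of these data known. Per the submitters' processing notes the tools were FastQC 0.11.9, cutadapt 1.18, STAR 2.7.9a and featureCounts 2.0.1, with build hg38. Raw read counts per gene of the sort, and edited reads per gene, were used as deposited. The reads column of the editing tables was treated as an estimated count, as deposited, because a broken line put fractions in it; 3 lines were dropped from each table. The deposited editing score is a fraction, edited reads over reads, per the file headers. The method of calling edited sites is not given in the sources used here.

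Abundance was tested with edgeR 4.0.16 in R 4.3.3 (TMM, filterByExpr, quasi-likelihood test, Benjamini-Hochberg over all genes, threshold 0.05). Editing was tested with edgeR on edited and unedited reads with a library effect. Alternatives used DESeq2 1.42.0, limma 3.58.1, other scalings and filters, centring, a batch block and leaving out libraries. The labels' batch tag pairs the libraries; deviations of same-batch libraries correlated at 0.094. Named members were the 12 largest rises and falls of at least 10 CPM, the 3 smallest p per substrate class, the 6 largest changes each way per editing table of the sort, the 4 leading members per knockdown result, the threshold neighbours, and 12 fixed genes; other names were chosen after their values were seen. Substrate classes follow the family number, so single members may carry something else. Coding sequences came from GENCODE v29. The edgeR tests were run on simulated data as a check of the code. Values of a few named members are not reported here.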

Additional observations from a re-analysis of the deposited data

How the results depend on the processing

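In abundance, all 115 called members kept their direction under every alternative run, and 85 (without the second cytosol library) to 115 (TMM on protein-coding genes) kept their call. DESeq2 kept 97, library-size scaling 107 and the replicate block 113. Of the named members, SLC20A2 lost its call in 4 alternatives, and SLC3A2 and SLC66A1 without a cytosol library. The estimate of SLC16A1 turned to -0.18 with library-size scaling, -0.021 with no filter, and lay between -0.064 and 0.066 without 1 library. That of SLC66A2 turned to -0.19 and -0.023 in the same order, and lay between -0.033 and 0.033 without 1 library. Neither was called. In A-to-I, limma called 11 members lower, centring gave 21 higher and 19 lower, and leaving out 1 library gave 1 to 2 lower. The replicate block gave 77 higher and 2 lower. Of the 82 members called in A-to-I, 24 were still called after centring, and the direction was reversed in 17. Of the 77 called in C-to-U, 13 were still called after centring, and the direction was reversed in 15. In C-to-U, centring gave 12 higher and 8 lower, limma 12 lower, and 0 were lower with the replicate block, with at least 20 reads in every library, or without any 1 library. SLC1A5 lost its C-to-U call under limma. For knockdown reads, 4 libraries gave 1 lower, 4 libraries with the replicate block gave 4 higher and 1 lower, and leaving out 1 library gave 1 to 17 higher and 0 to 5 lower. With 1 library left in a group, that library is assumed to vary like the other group. Pairing by batch changed no other count of calls by over 1.5 times. Unless the construction of an alternative shows it, the cause was not tested. Members not called in C-to-U had a median of 1076 reads over the 4 libraries, those called higher 3851 and the 1 called lower 616; the part of depth was not tested.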
